A study of Mus musculus with 2 samples.

Results

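The genes described here encode the proteins that store, carry, transport and sense iron: the ferritin chains Fth1 and Ftl1, the transferrin receptor Tfrc, transferrin (Trf), the transporters Slc40a1 and Slc11a2, the iron regulatory proteins Aco1 and Ireb2, and the erythroid heme enzyme Alas2. They were chosen by name, as 9 genes of the 45578 in the table, and all 9 were found. Each gene was represented by its annotated transcript with the highest count summed over both libraries, the longer one in a tie. Ribosome-protected fragments were captured from whole brain with RiboLace, in which beads carrying a puromycin analogue pull down translating ribosomes. There were 2 biological replicates of 1 group: control mice at postnatal day 5, of genotype Smn+/-; SMN2tg/0, which have a single intact copy of the mouse Smn gene and carry the human SMN2 transgene on an FVB background. Every animal carried both alleles, and there was no group without them and no second condition. Nothing was measured on messenger RNA abundance, so a footprint level holds the amount of a message and its translation together, and the number of expressing cells cannot be told apart from the level per cell.

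Iron balance in a cell is set largely at translation and message stability. The iron-responsive element is a short hairpin in an untranslated region that the iron regulatory proteins bind when iron is scarce. In the 5' untranslated region, as in the ferritins, Slc40a1 and Alas2, a bound protein blocks initiation, and in the 3' untranslated region, as in Tfrc, it protects the message from decay. In brain, iron enters across the vessel wall through the transferrin receptor, and oligodendrocytes and choroid plexus are known sources of transferrin.

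At the gene level the libraries summed to 343552 (replicate 1) and 120282 counts (replicate 2). A count was thus worth 2.71 CPM, the field's unit for counts scaled to a common library size, in the deeper library and 8.93 CPM in the other. Among preset markers, the 10 neuronal genes held 0.738% and 0.731% of counts and the 9 astrocyte and radial glia genes 0.369% and 0.354%, with every marker of both lists detected in both libraries. Of 7 liver genes Alb, Apoa1, Cyp2e1, Fgb and Ahsg had no counts and Serpina1a had 0 and 1. Ttr, which choroid plexus also makes, had 395 and 153 and so nearly all of the 0.115% and 0.128% that the list held. Isoforms share fragments: across 44 pairs of isoforms with equal coding length and nearly equal untranslated regions, counts differed by less than separate draws would (mean chi-square 0.356 in replicate 1, where separate draws give 1), yet 3 of the 44 pairs had equal counts in that library. The rule by which a shared fragment was assigned is not given in the sources used here, so a gene's count is not a number of independent reads.

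Together the 9 genes held 233 and 68 counts in replicates 1 and 2. These were 0.068% (95% Wilson interval 0.060 to 0.077) and 0.057% (0.045 to 0.072) of all gene counts. Their mean share was 0.062% ± 0.0080 (SD, n = 2), and the intervals of the libraries overlapped. The ferritin chains made up 118 of the 233 counts and 36 of the 68, or 50.6% and 52.9%. A mean of at least 10 counts, the minimum for testing, was reached by Fth1, Ftl1, Ireb2, Aco1 and Tfrc. Trf, Slc11a2, Alas2 and Slc40a1 did not reach it. All intervals given here cover counting error only and hold no spread between animals. PCR copies of a fragment cannot be recognised without molecular identifiers, and isoforms share fragments. The intervals may therefore be too narrow even for counting error.

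**Figure D1:**
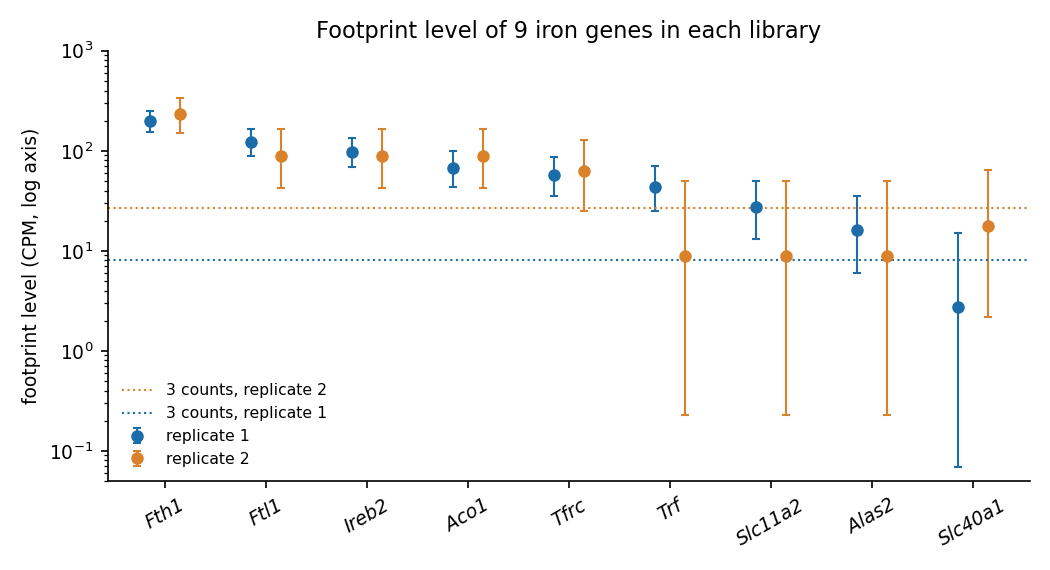
Footprint level in CPM (log axis) of the 9 genes in replicate 1 (blue) and replicate 2 (orange), ordered by mean level. Bars are exact 95% Poisson intervals of the counts and dotted lines mark the level of 3 counts in each library. Fth1 stands highest in both libraries, and replicate 2 lies below its line of 3 counts (26.8 CPM) for Trf, Slc11a2, Alas2 and Slc40a1.

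Among the storage genes, Fth1 (ENSMUSG00000024661), the heavy ferritin chain with the ferroxidase site that oxidises iron for storage, had the highest level of the 9 genes with 1 isoform per gene. With isoforms summed the order turned, at 176 and 45 counts for Ftl1 against 73 and 26 for Fth1. It had 73 counts in replicate 1 and 26 in replicate 2. This corresponds to 198 CPM (exact Poisson interval 155 to 249) and 232 CPM (152 to 340), a mean of 215 CPM ± 24.3 (SD, n = 2). The intervals of the libraries overlapped. The table lists a single transcript of 866 nucleotides, with 167 in the 5' untranslated region, 549 coding and 150 in the 3' untranslated region. Per coding length, Fth1 stood at 360 CPM per kilobase in replicate 1 and 423 in replicate 2. This was above 90.8% and 92.5% of the 4294 protein-coding genes past the count minimum. The medians of those genes were 63.0 and 60.7 CPM per kilobase. All coding densities here divide the count of a whole transcript by its coding length. The counts are not split by region, so fragments in untranslated regions may be included.

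Ftl1 (ENSMUSG00000050708), the light chain that aids formation of the mineral core, had 45 counts in replicate 1 and 10 in replicate 2. This corresponds to 122 CPM (exact Poisson interval 89.0 to 163) and 89.3 CPM (42.8 to 164). Its mean was 106 CPM ± 23.1 (SD, n = 2), with overlapping intervals. In both libraries Ftl1 lay below Fth1 on this scale. These counts belong to Ftl1-002, an isoform annotated for nonsense-mediated decay, the pathway that removes messages with an early stop, with only 255 coding nucleotides. The full-length coding isoform Ftl1-001, with 552 coding nucleotides, had 41 and 8 counts.

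All 5 Ftl1 isoforms held between 22 and 55 counts in sum, including those with no coding sequence. Ftl1-003, a retained-intron transcript, had 36 counts in replicate 1 and 8 in replicate 2. Ftl1-004, a processed transcript, had 36 and 15, so the order of the isoforms differed between the libraries. Ftl1-005 had 18 and 4. Transcripts without a coding sequence thus ranged from below the coding isoform in both libraries (Ftl1-005) to above it in replicate 2 (Ftl1-004), and the table holds nothing that separates fragments of isoforms that share sequence.

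Copies of ferritin elsewhere in the genome also carried counts. Of 14 ferritin-related genes found by symbol or synonym, 4 had any count, and RefSeq lists all 4 as pseudogenes. Ftl1-ps1, named Gm10116 in the table and annotated there as protein coding with 552 coding nucleotides, had 45 counts in replicate 1 and 8 in replicate 2, close to the 41 and 8 of Ftl1-001. Ftl2-ps, named Ftl2 in the table, had 28 and 6 counts. Ftl1-ps2, named Gm20746, had 12 and 0. The 3 light-chain pseudogenes held 85 and 14 counts together, beside 45 and 10 on the representative Ftl1 isoform and 176 and 45 over all 5 isoforms summed, where shared fragments may enter more than once. The heavy-chain pseudogene Fth-ps2 had 3 and 1. The value of Ftl1 is therefore uncertain, since fragments of these copies and of Ftl1 cannot be told apart by name, while fewer counts were involved for Fth1. Pseudogenes that carry no ferritin name were not searched for. Mitochondrial ferritin (Ftmt) and the Fthl17 genes and pseudogenes had no counts.

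**Figure D2:**
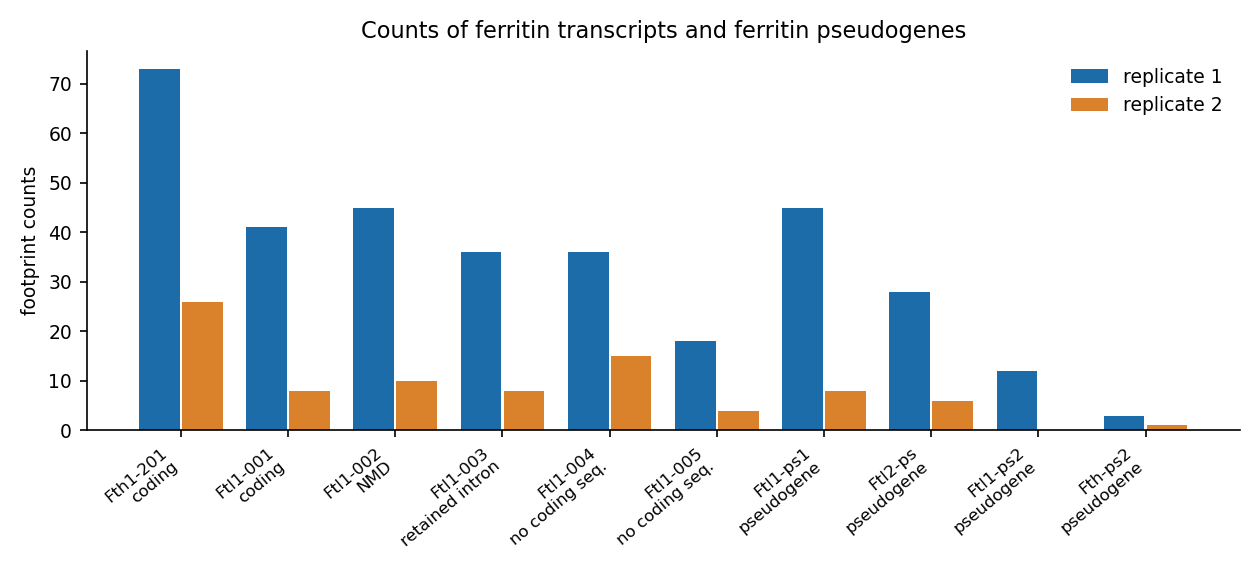
Footprint counts in replicate 1 (blue) and replicate 2 (orange) for the Fth1 transcript, the 5 Ftl1 isoforms and the 4 ferritin pseudogenes with counts, named as in RefSeq. Ftl1-ps1, at 45 and 8 counts, is as high as the coding isoform Ftl1-001, while Fth-ps2 stays at 3 and 1.

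The heavy and light chains assemble into mixed shells. Their ratio was taken within each library and so needs no scaling between libraries. Ftl1-002 has 943 nucleotides, of which only 255 are coding, and its count is not split by region. Its coding density may therefore be raised by fragments outside the coding sequence. On the isoforms with the highest count, the coding density of Fth1 was 0.753 times that of Ftl1 in replicate 1 (exact Clopper-Pearson interval 0.513 to 1.12) and 1.21 times in replicate 2 (0.563 to 2.81). Their mean was 0.981 ± 0.321 (SD, n = 2), and both intervals include 1. With the longest coding isoform of each gene, an alternative that takes Ftl1-001, the ratio was 1.79 (1.20 to 2.69) and 3.27 (1.44 to 8.35), a mean of 2.53 ± 1.04 (SD, n = 2). Fth1 then lay above Ftl1 in both libraries and both intervals lay above 1. The order of the chains per coding length thus depends on the coding length assigned to Ftl1 (255 or 552 nucleotides), while its counts barely moved. Per transcript length the ratio was 1.77 and 2.83. With isoforms summed, which adds the 5 transcripts of Ftl1 against the single one of Fth1, it was 0.193 and 0.268, the opposite order. The summed Ftl1 counts were divided by the 255 coding nucleotides of Ftl1-002, so the size of this ratio also rests on that length.

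Tfrc (ENSMUSG00000022797), the receptor that brings iron-loaded transferrin into the cell, had 21 counts in replicate 1 and 7 in replicate 2. This corresponds to 56.9 CPM (exact Poisson interval 35.2 to 87.0) and 62.5 CPM (25.1 to 129). Its mean was 59.7 CPM ± 3.96 (SD, n = 2), a close match at a depth where each interval spans more than the difference. Per coding kilobase it stood at 24.8 and 27.3 CPM, above 18.6% and 23.6% of protein-coding genes. Its main isoform Tfrc-001 has a 3' untranslated region of 2458 nucleotides, longer than its coding sequence of 2292, and this is the region known to carry its iron-responsive elements. A shorter coding isoform, Tfrc-002, with 235 nucleotides of 3' untranslated region and 1548 coding nucleotides, had 15 and 6 counts. The longer isoform held 7 more counts in sum over 3030 additional nucleotides, of which 744 were coding. Tfr2, the liver-type receptor, had 4 and 0 counts.

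Trf (ENSMUSG00000032554), the iron carrier of plasma and brain fluid, had 16 counts in replicate 1 and 1 in replicate 2. The level was 43.4 CPM (exact Poisson interval 24.8 to 70.4) in replicate 1 and 8.93 CPM (0.226 to 49.8) in replicate 2, a ratio of replicate 2 to replicate 1 of 0.206 (exact interval 0.0049 to 1.33) that includes 1. With no count minimum, the 2-sided exact binomial test gave an unadjusted p of 0.0907 and an adjusted p of 1. The second full-length coding isoform, Trf-002, had 12 and 1 counts, with the same coding length and a 5' untranslated region of 57 in place of 228 nucleotides.

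Markers of the known sources of transferrin were present in both libraries, and their part in the level of Trf was not tested. The 11 oligodendrocyte-lineage markers held 290 and 107 counts in replicates 1 and 2, equal to 0.084% and 0.089% of counts, and the 10 choroid plexus markers 464 and 174 counts, or 0.135% and 0.145%. Ttr alone, the thyroid hormone carrier of choroid plexus, had 395 and 153 of the latter. Among markers of mature oligodendrocytes, Mog had 2 and 0 counts and Mobp 2 and 1.

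Slc11a2 (ENSMUSG00000023030), which moves ferrous iron out of endosomes, had 10 counts in replicate 1 and 1 in replicate 2. This corresponds to 27.1 CPM (exact Poisson interval 13.0 to 49.8) and 8.93 CPM (0.226 to 49.8). The library intervals overlapped. Its 8 isoforms include coding forms with different 3' untranslated regions, a known feature of this gene, whose messages exist with and without an iron-responsive element. Slc11a2-002, with 2650 nucleotides of 3' untranslated region, had the 10 and 1 counts, and Slc11a2-001, with 1186, had 8 and 0. Which of these annotated isoforms holds the element is not given in the table, and they could not be separated at these counts.

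Slc40a1 (ENSMUSG00000025993), ferroportin, the iron exporter of cells, was at the limit of detection. Its coding isoform Slc40a1-001 had 3 counts in replicate 1 and 0 in replicate 2. In replicate 2 a level of 3 counts is 26.8 CPM, which is no upper bound for the gene. A retained-intron transcript, Slc40a1-004, tied with Slc40a1-001 in summed count, at 1 and 2 counts. It was taken as the longer one, so no coding density could be given. The exact Poisson interval of its 2 counts in replicate 2 reached 64.5 CPM. All isoforms summed held 5 and 5 counts, where shared fragments may enter more than once. None of the 8 isoforms had more than 3 counts in sum. At this depth a level below about 26.8 CPM could not be measured for the exporter in replicate 2.

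Ireb2 (ENSMUSG00000032293), iron regulatory protein 2, which is controlled mainly through its degradation, had 36 counts in replicate 1 and 10 in replicate 2. These gave 97.6 CPM (exact Poisson interval 68.3 to 135) and 89.3 CPM (42.8 to 164), a mean of 93.4 CPM ± 5.84 (SD, n = 2). Aco1 (ENSMUSG00000028405), iron regulatory protein 1, which doubles as the cytosolic aconitase when it holds an iron-sulfur cluster, had 25 and 10 counts. Its levels were 67.7 CPM (43.8 to 100.01) and 89.3 CPM (42.8 to 164), a mean of 78.5 CPM ± 15.2 (SD, n = 2). The libraries overlapped for both genes.

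Per coding kilobase Ireb2 stood at 33.7 and 30.9 CPM and Aco1 at 25.4 and 33.4 CPM, so Ireb2 was the higher in replicate 1 and Aco1 in replicate 2. The ratio of Aco1 to Ireb2 was 0.752 in replicate 1 (exact Clopper-Pearson interval 0.433 to 1.29) and 1.08 in replicate 2 (0.405 to 2.90), a mean of 0.918 ± 0.234 (SD, n = 2). Both intervals include 1 and allow a severalfold range, so these counts do not order the sensors. Both had a single transcript with most of the counts: Ireb2 has only 1 in the table, and the other Aco1 transcripts had at most 7 counts in sum.

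Alas2 (ENSMUSG00000025270), the first enzyme of heme synthesis in red cell precursors, had 6 counts in replicate 1 and 1 in replicate 2. This corresponds to 16.3 CPM (exact Poisson interval 5.97 to 35.4) and 8.93 CPM (0.226 to 49.8). The libraries overlapped. The 4 adult globin genes, whose messages persist in circulating red cells, had 343 to 362 counts in replicate 1 and 108 to 121 in replicate 2. Among the other erythroid markers Klf1 and Gata1 had no counts, Slc4a1 had 1 and 0, and Ank1 had 6 and 1, the same counts as Alas2. The 10 matched erythroid markers together held 0.410% and 0.385% of counts, nearly all of them globin, and their part in the level of Alas2 was not tested. The housekeeping form Alas1 had 15 and 7 counts, a coding density 2.23 times that of Alas2 in replicate 1 (exact Clopper-Pearson interval 0.818 to 7.02) and 6.25 times in replicate 2, where Alas2 had a single count (interval 0.803 to 282). Both intervals include 1, and with the longest coding isoform of each gene the ratios were 2.74 and 2.29.

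The 8 genes with a coding length on their representative isoform fell into a high and a low set. Ftl1 and Fth1 averaged 414 ± 90.5 and 392 ± 44.2 CPM per kilobase (each SD, n = 2), with overlapping libraries. Ireb2, Aco1 and Tfrc followed at 32.3 ± 2.02, 29.4 ± 5.71 and 26.1 ± 1.73. Neighbours among these 3 overlapped, while both libraries of Fth1 lay above both of Ireb2. Trf, Slc11a2 and Alas2 were lowest, at 12.5 ± 11.6, 10.7 ± 7.62 and 7.33 ± 3.02, and each overlapped the next. Both libraries of Tfrc lay above both of Trf, on 21 and 7 counts for Tfrc and 16 and 1 for Trf. Trf was below the count minimum, so the order of these genes is uncertain.

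Set against all protein-coding genes past the count minimum, the 2 ferritins lay above the median density in both libraries, and Ireb2, Aco1 and Tfrc below it in both. Trf, Slc11a2 and Alas2 were also below it, but they failed the count minimum that the reference genes had to pass, so their place below the median is no result. Ireb2, Aco1 and Tfrc have long coding sequences, at 2892, 2670 and 2292 nucleotides where the median of the reference genes was 1398. A minimum on counts lets long genes pass at lower densities than short ones. The ferritins have short coding sequences, at 549 and 255 nucleotides. With Ftl1-001 in its place, Ftl1 fell to 165 ± 50.8 CPM per kilobase, no longer overlapped Fth1 and was above 82.1% and 72.9% of protein-coding genes. On these isoforms the low end also changed order: Alas2 stood at 8.13 ± 2.81, Slc11a2 at 6.35 ± 8.98 and Slc40a1, now with a coding length, at 2.37 ± 3.36 (each SD, n = 2). Each of these overlapped the next, so the counts do not order them.

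**Figure D3:**
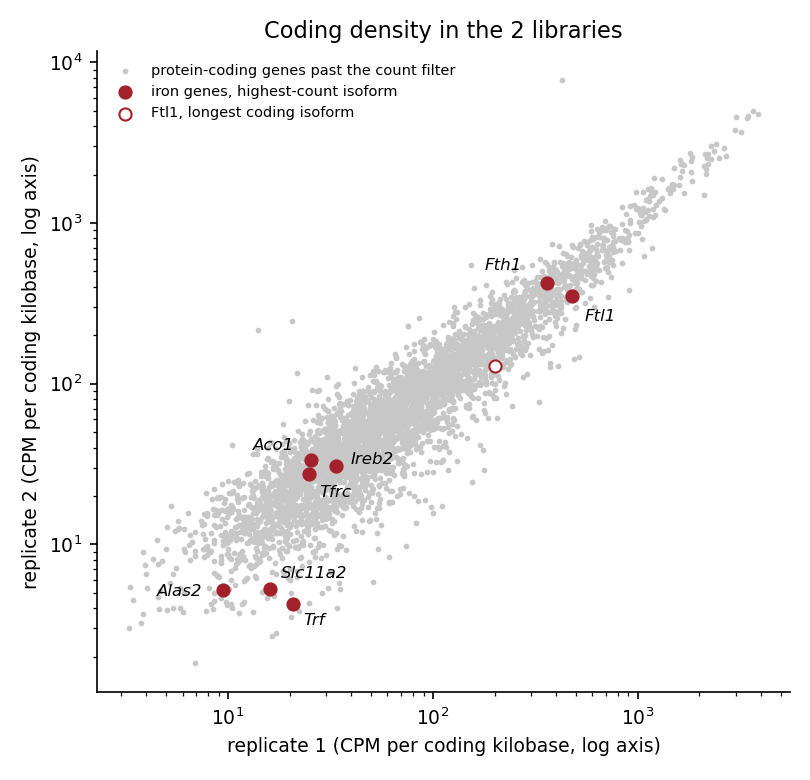
Coding density (CPM per coding kilobase, log axes) in replicate 1 against replicate 2. Grey points are protein-coding genes past the count minimum with counts in both libraries, red points are the 8 iron genes with a coding length, including those below the minimum, and the open point is Ftl1 on its longest coding isoform, at 201 and 129. The ferritins lie in the upper part of the cloud, below its upper end, and the other iron genes in the lower part. Of the latter, Trf, Slc11a2 and Alas2 failed the count minimum, so their low place is no result.

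By nearness in log2 coding density over the 2 libraries, the genes most like Fth1 were Ppp3r1, a calcineurin subunit (359 and 435 CPM per kilobase, distance 0.042), Aplp1, an amyloid precursor relative (364 and 436, distance 0.047), and Dner (344 and 419, distance 0.068). For Ftl1, on Ftl1-002 at 478 and 350, they were Gm5160, Romo1 and Rpl32, at distances of 0.072 to 0.082. These neighbours rest on the short coding length of that isoform, since Ftl1-001 stood at 201 and 129 CPM per kilobase. For Trf the nearest genes were Stat3, Tbcd and Slc39a12, at distances of 0.177 to 0.265 and with 1 or 2 counts each in replicate 2. With 2 libraries, such nearness describes the level alone.

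The 2-sided exact binomial test, with Benjamini-Hochberg adjustment over the 5436 genes past the count minimum, compared the reads of these 2 libraries and not conditions. It called 225 genes, or 4.14% of those tested, and 42 of 4392 protein-coding genes, or 0.956%. The 4294 genes used for densities are those of the 4392 whose representative isoform has a coding length. Of the 5 iron genes tested, 0 were called and 0 had an unadjusted p under 0.05, which 9.6% of all tested genes had. edgeR's exact test with a preset coefficient of variation of 0.2, which called 2.41% of all genes, called 0 of the 5 and gave 0 an unadjusted p under 0.05. With 5 genes, a count of 0 is near these backgrounds.

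The ratio of replicate 2 to replicate 1, on the log2(CPM + 1) scale, was 0.23 for Fth1 (counting SE 0.33), -0.45 for Ftl1 (SE 0.50), -0.13 for Ireb2 (SE 0.51), 0.39 for Aco1 (SE 0.53) and 0.13 for Tfrc (SE 0.62). Each lay within 1 SE of 0. Their median was 0.13, beside 0.0041 for all tested genes. The adjusted exact binomial p was at least 0.982 for all 5. On the linear scale the intervals were wide: the CPM ratio was 1.17 for Fth1 (exact interval 0.720 to 1.86), 0.732 for Ftl1 (0.329 to 1.47) and 1.10 for Tfrc (0.394 to 2.68), so that differences of such sizes between the animals were not detectable at this depth. For Tfrc the sign of the ratio turned to -0.07 with library totals and to -0.04 without the count minimum.

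From 6 lists of iron-related genes, 78 of 80 genes were matched, 23 passed the count minimum and 11 had no counts. Of the 23, only App was called by the exact binomial test described above, or 1 of 23. The share called was 4.14% of all tested genes and 0.956% of the protein-coding genes among them. The lists were written with earlier results of these data known.

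Among 9 other messages with a reported iron-responsive element, 7 passed. App, the amyloid precursor protein, had 515 and 220 counts and was higher in replicate 2, with a log2 ratio of 0.49 (counting SE 0.12, adjusted exact binomial p = 0.0012). The call was lost with library totals (adjusted p = 0.234), without the count minimum (adjusted p = 0.291) and with the preset coefficient of variation (adjusted p = 1). App and the actin regulator Pfn2 stood at 805 ± 193 and 737 ± 91.6 CPM per coding kilobase (each SD, n = 2), above both ferritins in both libraries. Epas1, a hypoxia-inducible transcription factor, had 24 and 8 counts, nearly those of Tfrc, and stood at 26.0 ± 1.72. Cdc14a had 1 and 1 counts and Hao1 none.

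Of 8 genes for storage, chaperones and sensing, 6 passed and 0 were called. Skp1a, a ubiquitin ligase subunit, stood at 530 ± 108 CPM per coding kilobase, and Pcbp1 and Pcbp2, RNA-binding proteins that also hand iron to ferritin, at 373 ± 73.4 and 219 ± 69.5. Ncoa4, the receptor that takes ferritin to the lysosome, stood at 42.1 ± 5.75, below the protein-coding medians, as were Cul1 at 28.9 ± 7.94 and Herc2 at 14.5 ± 3.05, both parts of ubiquitin ligases (each SD, n = 2). Fbxl5, the iron-sensing adaptor that marks Ireb2 for degradation, had 4 and 2 counts.

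Of 14 matched uptake genes, Slc22a17, the lipocalin receptor, and Mcoln1, an endolysosomal channel, passed. Slc22a17 stood at 602 ± 91.5 CPM per coding kilobase (SD, n = 2), and Mcoln1 had 17 and 3 counts on a transcript with no coding sequence. The endosomal ferrireductase Steap3 had 2 and 0 counts. Among 9 matched export and systemic genes, Neo1, a guidance and BMP co-receptor, passed at 81.9 ± 5.43 (SD, n = 2). The ferroxidases that work with ferroportin were low, Heph at 4 and 1 counts and Cp at 5 and 1, and the hormone hepcidin (Hamp) had none. The 9 endothelial markers held 87 and 36 counts, and Cldn5, a tight-junction protein of vessels, 28 and 13.

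Genes of iron-sulfur cluster assembly were mostly detected below the count minimum: 22 of 23 had a count and 4 passed, with 0 called. Cisd1, a mitochondrial outer membrane iron-sulfur protein, stood at 258 ± 56.5 CPM per coding kilobase, the glutaredoxin Glrx5 at 187 ± 38.6, the chaperone Hspa9 at 114 ± 18.4 and Ciapin1 at 43.5 ± 20.8 (each SD, n = 2). The mitochondrial iron importer of erythroid cells, Slc25a37, had no counts, while its relative Slc25a28 had 7 and 3. Of 15 heme genes, 3 passed and 0 were called. Hmox2, the constitutive heme oxygenase, stood at 45.6 ± 24.5 and Alas1 at 26.8 ± 8.03 CPM per coding kilobase (each SD, n = 2). Alad had 27 and 8 counts on a transcript with no coding sequence.

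**Figure D4:**
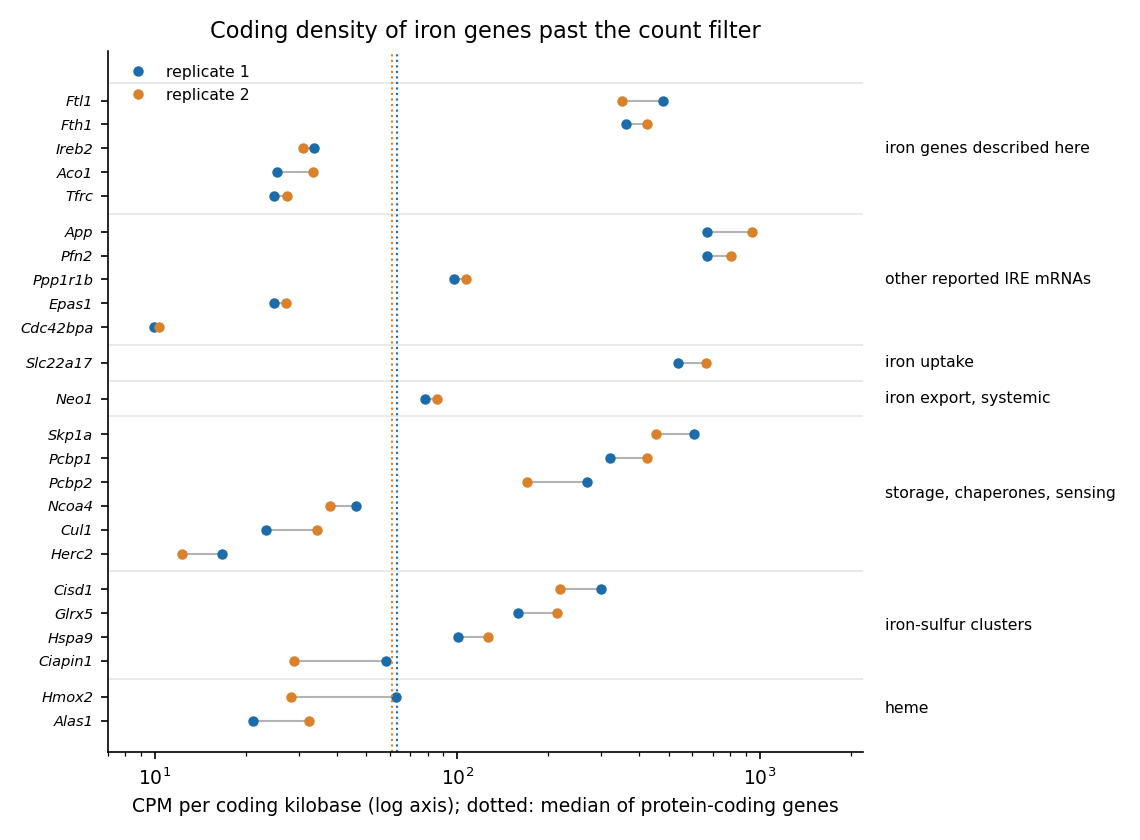
Coding density (CPM per coding kilobase, log axis) in replicate 1 (blue) and replicate 2 (orange) for 24 iron genes past the count minimum that have a coding length, by list; IRE stands for iron-responsive element. Dotted lines are the medians of protein-coding genes, 63.0 and 60.7. App, Pfn2, Slc22a17 and Skp1a lie to the right of both ferritins in both libraries, and Ireb2, Aco1 and Tfrc to the left of the medians.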

How the data were processed

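The authors deposited 1 table of raw counts of ribosome-protected fragments for 109463 transcripts in 2 libraries, with transcript, coding and untranslated lengths. Per the labels' protocols, fragments were selected by size after nuclease digestion and RiboLace capture. The submitters' processing notes name Trimmomatic 0.36, Bowtie2 2.2.6, SAMtools and the build GRCm38.p4. The counting rule and annotation release are not given in the sources used here, and no coordinates are printed. Iron-responsive element sequences were not analysed here.

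Counts per gene were those of the transcript with the highest summed count. CPM used edgeR 4.0.16 TMM factors (1.07 and 0.931) over 5436 genes averaging at least 10 counts. A 2-sided exact binomial test (scipy 1.17.1) compared the libraries, with Benjamini-Hochberg adjustment at 0.05. Alternatives were library totals, DESeq2 1.42.0 size factors, other count minimums, isoform choices and lengths, and coding genes alone. The binomial p-values set the difference between 2 libraries against counting error alone, treating counts as independent, and measure no spread between animals. All 9 iron genes are named. From each other list, genes past the count minimum were named, up to 4 by coding density; any others named with counts, and the ratio of Alas1 to Alas2, were chosen after their values were seen. Ferritin relatives were found through symbols and synonyms in RefSeq for GRCm38.p6. Some listed genes are not reported here. The genes, lists and tests were chosen with earlier results of these data known.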

Additional observations from a re-analysis of the deposited data

How the results depend on the processing

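No paired analysis was possible because the study has a single group. The number of iron genes called stayed at 0 under every alternative run; a minimum mean of 50 counts left none of them to test. Over all genes, 225 of 5436 tested were called, and 75 of 764 at the minimum of 50. With isoforms summed 605 of 8366 were called, and 22 of 4392 for protein-coding genes alone. The preset coefficient of variation gave 131 of 5436. The numbers tested differ, so the counts of calls alone do not compare these settings. The share of counts, 0.062%, was 0.080% of the coding total, by construction of a smaller total, and 0.057% to 0.068% leaving out each replicate. The ratio of Fth1 to Ftl1 density, 0.981, became 2.53 on the longest coding isoforms and 2.30 per transcript length. With isoforms summed it was 0.231, where Ftl1 has more isoforms and their counts were divided by the 255 coding nucleotides of Ftl1-002. Leaving out each replicate, the main ratio ranged from 0.753 to 1.21. The ratio of Aco1 to Ireb2, 0.918, became 1.19 with isoforms summed and 1.28 per transcript length, and 0.752 to 1.08 leaving out each replicate. The log2 ratio of Tfrc, 0.13, became -0.0697 with library totals and -0.0395 without the count minimum; library totals moved the median of all genes from 0.0041 to -0.20. The log2 ratios of Fth1, Ftl1, Ireb2 and Aco1 kept their sign in the alternatives that tested them. The log2 ratio of App went from 0.49 to 0.29 with library totals and 0.32 without the count minimum. The split of all calls moved from 217 higher and 8 lower to 176 and 23 with library totals and 383 and 222 with isoforms summed. The preset coefficient of variation for single genes and the densities on longest coding isoforms were added after seeing the data.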
